A study of Mus musculus with 6 samples.

Results

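Il1b, Il1a, Tnf, Il6, Cxcl2, Cxcl1, Ccl3, Ccl4, Cxcl10 and Ptgs2, which encode inflammatory cytokines, chemokines and the inducible cyclooxygenase, were examined in haematopoietic stem and progenitor cells. They were taken by exact gene symbol, and all 10 were found among the 38926 symbols of the expression table. The cells were LSK cells (Lin- Sca1+ cKit+), the marrow fraction that includes haematopoietic stem cells and multipotent progenitors, taken from femur and tibia. Of the 6 libraries, 3 are labelled Drd2 Drd3 double knockout (KO) and 3 wild type (WT). Both groups were untreated C57BL/6 mice aged 8 to 12 weeks, and the comparison asked which genes differ in LSK cells when the D2-like dopamine receptor genes Drd2 and Drd3 are targeted.

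The interleukin 1 cytokines and Tnf are early signals of inflammation. They act through NF-kB and MAP kinases, which in turn raise the transcription of the same cytokines, of chemokines and of Ptgs2. Their mRNAs are short-lived, since many carry AU-rich elements in the 3′ UTR that recruit decay factors such as tristetraprolin. Haematopoietic stem and progenitor cells respond to these cytokines and can also make some of them.

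Promoters of the chemokine genes are shown because neighbouring chemokine genes had very different levels in these libraries. RefSeq (build GRCm38.p6) gave a promoter for 9 of the 10 genes. The kappa B motif, the binding sequence of NF-kB, was searched on both strands over 250 bases before the start, together with the AP-1 motif TGANTCA, the interferon-stimulated response element (ISRE) and, on the forward strand, the TATA box TATAAA. The stretches below are the 150 bases before the start of Cxcl2 (chr5:90903749-90903898, plus strand), Cxcl1 (chr5:90891095-90891244, plus strand) and Cxcl10 (chr5:92348890-92349039, minus strand), written 5′ to 3′, with matches to the kappa B and AP-1 motifs in capitals.
Cxcl2: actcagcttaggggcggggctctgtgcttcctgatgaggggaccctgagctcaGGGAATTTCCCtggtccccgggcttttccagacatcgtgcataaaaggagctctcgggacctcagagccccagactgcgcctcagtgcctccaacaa
Cxcl1: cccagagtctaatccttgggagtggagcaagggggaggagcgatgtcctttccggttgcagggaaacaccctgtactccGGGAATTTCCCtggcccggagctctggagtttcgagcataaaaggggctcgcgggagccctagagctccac
Cxcl10: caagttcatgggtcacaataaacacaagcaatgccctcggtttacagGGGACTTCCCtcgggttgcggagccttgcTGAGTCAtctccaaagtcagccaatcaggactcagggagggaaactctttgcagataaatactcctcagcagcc

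In Cxcl2 and Cxcl1 the capitals are the same run, in which a kappa B match on each strand overlaps the other with an offset of 1 base. It lay from -97 to -87 in Cxcl2 and from -71 to -61 in Cxcl1, counted back from the annotated start. In Cxcl10 the capitals are a kappa B match from -103 to -94 and an AP-1 match from -74 to -68. Outside the printed stretch, Cxcl10 held a further kappa B match from -159 to -150 and an ISRE match from -213 to -204. Il6 was the fourth gene with a kappa B match, from -44 to -35. The kappa B motif was thus present in 4 of the 9 promoters, against 3.90% of all 32851 promoters of this length. AP-1 was matched in Cxcl10, Il1a and Il6 (6.75% of all promoters), ISRE in Cxcl10 alone of the 9 (2.98%) and TATAAA in Il1a, Il1b and Tnf (7.59%). Ccl3 and Ptgs2 held none of these letters in the window. A match describes the sequence and does not show binding.

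**Figure D1:**
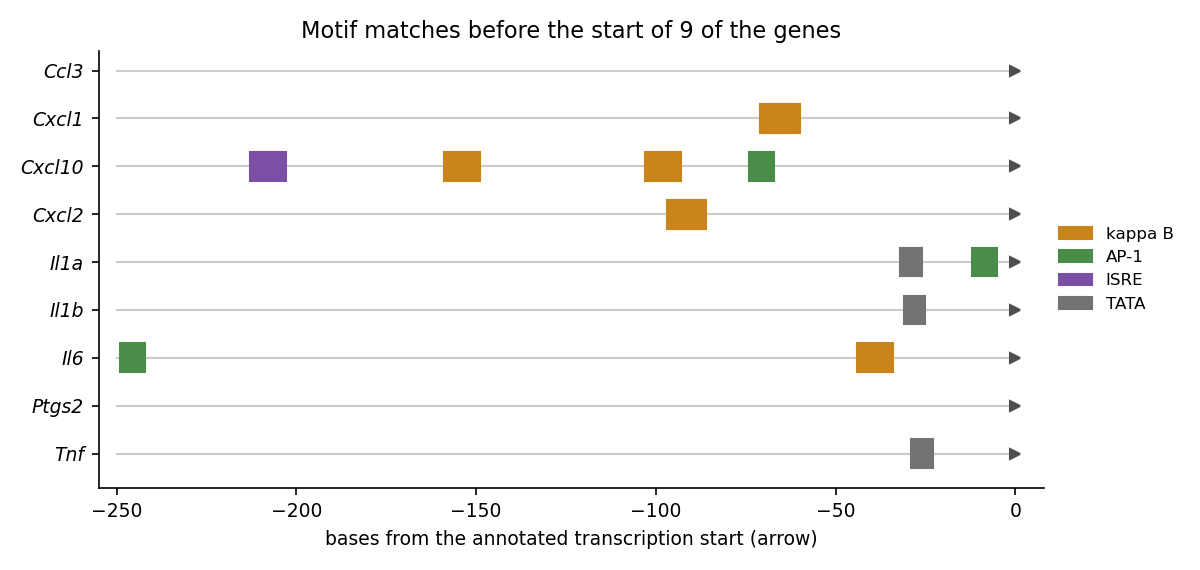
Positions of kappa B, AP-1, ISRE and TATA matches in the 250 bases before the annotated start of 9 of the genes; the horizontal axis counts bases from the start, marked by the arrow. Kappa B matches lie within 159 bases of the start in Cxcl1, Cxcl2, Cxcl10 and Il6, and the TATA matches of Il1a, Il1b and Tnf lie between -32 and -24.

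The 3′ UTRs are shown because the AU-rich element is the feature shared by several of these mRNAs. In the longest annotated 3′ UTR of each gene (GENCODE M21, build GRCm38), copies of ATTTA were counted on the transcript strand, overlapping copies included, and so were nonamers that begin with TTATTTA and end in 2 bases that are each A or T. Each line below is the 30-base window richest in ATTTA, 5′ to 3′, with bases that belong to an ATTTA copy in capitals, also where the window ends inside a copy. The windows lie at chr17:35199679-35199708 (Tnf, minus strand), chr5:90905327-90905356 (Cxcl2, plus), chr1:150105798-150105827 (Ptgs2, plus), chr5:90892602-90892631 (Cxcl1, plus) and chr2:129364808-129364837 (Il1b, minus).
Tnf: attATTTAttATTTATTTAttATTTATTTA
Cxcl2: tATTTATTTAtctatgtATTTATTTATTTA
Ptgs2: ATTTATTTATTTAtgtgaagaATTTAATTT
Cxcl1: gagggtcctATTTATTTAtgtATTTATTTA
Il1b: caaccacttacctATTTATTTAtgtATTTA

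Nonamers were found in 5 of the 10 genes (50%), against 17.1% of 9817 tested genes with an annotated 3′ UTR. Tnf held 5, Cxcl2 and Ptgs2 held 4 each, Cxcl1 held 2 and Ccl3 held 1. At least 2 nonamers were present in 4 of the 10 (40%), against 4.14% of tested genes. The 10 genes had a median of 6.99 ATTTA copies per kb of 3′ UTR, against 1.31 in tested genes, while their median 3′ UTR length was 880 bases, against 1110. Il1b, Il1a, Il6, Ccl4 and Cxcl10 held no nonamer.

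Expression was read from deposited FPKM values, which are reads scaled per kilobase of gene and by sequencing depth. Whole reads recovered from the ratios of these values came to 7143202, 6813923 and 5243367 in the libraries labelled KO replicates 1, 2 and 3, and to 6201265, 5903055 and 6196096 in those labelled WT replicates 1, 2 and 3. For a gene of 2 kb, a single read was worth 0.0693 to 0.0921 FPKM, and floors based on reads cover counting error only. Whether the replicates are separate animals is not stated in the labels, and p-values here reflect only how much these libraries varied, which may be technical. Of the targeted genes, Drd2 was at 0 in every library and checks nothing, while Drd3 reached 1.62, 3.08 and 3.04 FPKM in those labelled KO, against 0 in those labelled WT. Drd3 went against the labels, and how the alleles were made and which exons were altered are not given in the sources used here, so every direction given is one between libraries labelled KO and libraries labelled WT.

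The libraries labelled KO replicates 1 and 3 stood apart from the other 4. The Y-linked gene Ddx3y was at 0 in both, against 15.1 FPKM in the library labelled KO replicate 2 and 12.5 to 13.9 FPKM in those labelled WT. Xist was at 1.96 and 2.01 FPKM in the same pair and at 0 elsewhere. By Ddx3y and Xist the KO libraries were mixed for sex and the WT libraries were not, and the labels give no sex. Igkc, the immunoglobulin kappa constant region, reached 3182 and 1173 FPKM in this pair, with 4.93 FPKM in the library labelled KO replicate 2 and 1.98 to 2.48 FPKM in those labelled WT. Results are therefore also given without this pair, a fit that leaves KO replicate 2 as the lone KO library and assumes that it varies like the WT libraries.

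Of the 10 genes, 8 averaged at least 1 FPKM across the 6 libraries and were tested, and Il6 and Cxcl1 were not. In limma's test on log2(FPKM + 1), 6 of the 8 were lower in the libraries labelled KO at a Benjamini-Hochberg adjusted p under 0.05, namely Cxcl2, Ptgs2, Il1b, Tnf, Ccl4 and Cxcl10. The share of all 11371 tested genes called lower was 5.43%. By limma 0 were called higher, where 5.48% of all tested genes were. At an unadjusted p under 0.05 limma gave 8 lower and 0 higher, a threshold whose share over all tested genes was not counted. By limma's voom on the recovered reads, 7 were called lower and 0 higher. Over all 11371 genes voom called 811 lower and 765 higher. All KO libraries lay under all WT libraries in 7 of the 8, against 16.6% of tested genes. The median log2 fold change of the 8 was -1.38, against -0.002 over all tested genes. The 10 genes were chosen with earlier results of these data known, so the values over all tested genes are background and no test of the choice. Without KO replicates 1 and 3, 6 genes were again called lower, with Ccl3 among them and Cxcl10 not. In bulk RNA, fewer cells that express a gene and less RNA per cell cannot be told apart.

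**Figure D2:**
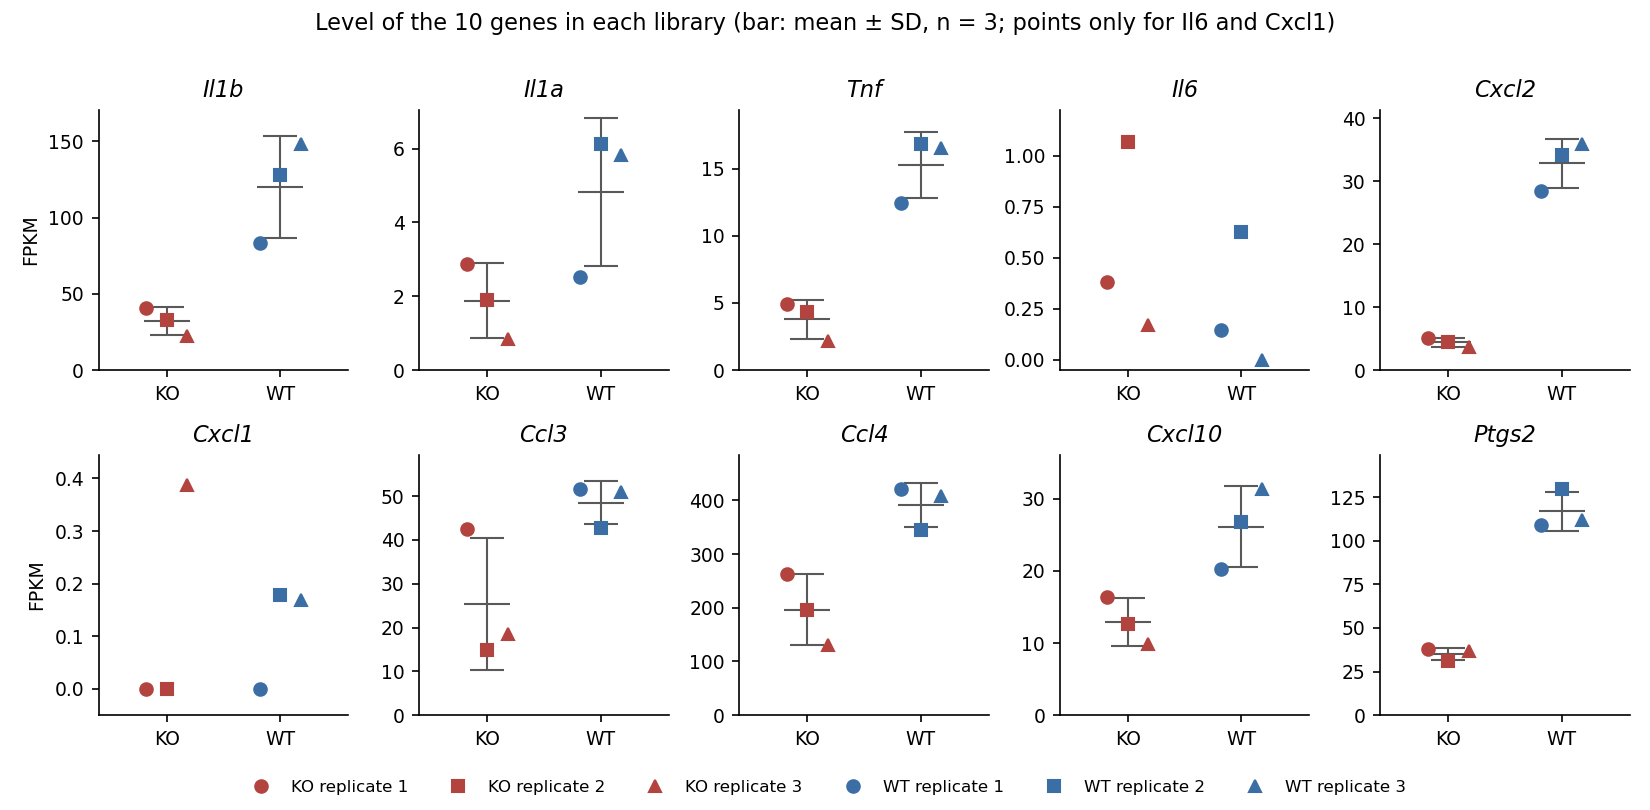
FPKM of each of the 10 genes in the 3 libraries labelled KO (left) and the 3 labelled WT (right); marker shapes stand for replicates 1 to 3, and bars give the mean ± SD (n = 3), with points only for Il6 and Cxcl1. In 7 genes every KO point lies under every WT point, and Il1a, Il6 and Cxcl1 overlap.

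Il1b encodes interleukin 1 beta, a secreted cytokine that must be cleaved to become active. Libraries labelled KO replicates 1, 2 and 3 had 41.0, 32.9 and 22.3 FPKM, against 83.4, 128 and 148 FPKM in those labelled WT replicates 1, 2 and 3. The groups did not overlap, and the highest KO library stood at 41.0 FPKM, well under the lowest WT library. The mean was 32.1 ± 9.36 FPKM in KO and 120 ± 33.3 FPKM in WT (SD, n = 3 each), a ratio of 0.267. The log2 fold change was -1.87 ± 0.24 (SE, limma adjusted p = 0.00267). Il1b kept its call in all 15 alternative settings (limma adjusted p of 0.000494 to 0.0467).

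Il1a encodes interleukin 1 alpha, which signals through the same receptor as interleukin 1 beta and is active without cleavage. It was far lower than Il1b, at 2.88, 1.91 and 0.840 FPKM in KO and 2.52, 6.14 and 5.84 FPKM in WT libraries. KO replicate 1 lay above WT replicate 1, so the groups overlapped. The log2 fold change of -1.02 ± 0.34 did not pass (limma adjusted p = 0.0885; 0.0510 to 0.267 over its alternatives), and the values rest on 76 recovered reads in KO and 174 in WT. Il1b and Il1a lie on chromosome 2 on the minus strand, at chr2:129364570-129371139 and chr2:129299610-129309972, 54.6 kb apart. The ratio of Il1b to Il1a FPKM was 14.2, 17.2 and 26.6 in KO and 33.2, 20.9 and 25.4 in WT libraries, which overlapped.

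Tnf encodes tumour necrosis factor, a cytokine shed from the cell surface. It stood at 4.90, 4.33 and 2.14 FPKM in KO libraries, against 12.4, 16.9 and 16.5 FPKM in WT libraries. Every KO value was below every WT value. The mean was 3.79 ± 1.46 FPKM in KO and 15.3 ± 2.47 FPKM in WT (SD, n = 3 each), a ratio of 0.248, with a log2 fold change of -1.80 ± 0.24 (limma adjusted p = 0.00286). The call held in all 15 alternatives (limma adjusted p of 0.00104 to 0.0268). Tnf lies at chr17:35199381-35202007 on the minus strand.

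Il6 encodes interleukin 6, a cytokine of the acute-phase response. It was barely detected, at 0.382, 1.06 and 0.170 FPKM in KO and 0.147, 0.628 and 0 FPKM in WT libraries, which is 3, 8 and 1 recovered reads in KO and 1, 4 and 0 in WT. All but the value of KO replicate 2 and that of WT replicate 2 were at or under the level of 3 recovered reads, which was 0.382 to 0.509 FPKM in KO and 0.442 to 0.471 FPKM in WT. In the fit with no filter on low values, the log2 fold change was 0.28 ± 0.26 (limma adjusted p = 0.6002), so no difference was detectable at this depth. Il6 lies at chr5:30013114-30019981 on the plus strand.

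Cxcl2 showed the largest difference of the 8 tested genes and the third most negative log2 fold change of all 11371. It encodes a chemokine that attracts neutrophils through the receptor Cxcr2. Its level was 5.13, 4.39 and 3.67 FPKM in KO libraries, against 28.4, 34.2 and 36.0 FPKM in WT libraries. The lowest WT library was several times the highest KO library, with 92 recovered reads over the KO libraries and 635 over the WT libraries. The mean was 4.40 ± 0.728 FPKM in KO and 32.9 ± 3.95 FPKM in WT (SD, n = 3 each), a ratio of 0.134. The log2 fold change was -2.65 ± 0.15 (limma adjusted p = 3.53e-05), and the call held in all 15 alternatives (adjusted p of 5.79e-06 to 0.00490).

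Cxcl1 encodes a chemokine of the same receptor and lies 10.8 kb from Cxcl2, at chr5:90891241-90893115 against chr5:90903871-90905938, both on the plus strand. Unlike Cxcl2 it was close to absent, at 0, 0 and 0.387 FPKM in KO and 0, 0.179 and 0.168 FPKM in WT libraries. These values are 0, 0 and 2 recovered reads in KO and 0, 1 and 1 in WT. The reads of Cxcl1 and of Il6 are lower bounds, and at this depth no fold is given for Cxcl1. The longest run of bases that the transcripts of Cxcl1 and Cxcl2 share exactly was 23. Both promoters carry the capitalised kappa B run printed above, and Cxcl1 held 2 AU-rich nonamers and Cxcl2 held 4.

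Of the other chemokine genes of this cluster, Pf4 and Ppbp passed the filter, and neither was called lower. Pf4, platelet factor 4, lies 130 kb from Cxcl2 and rose to 151, 167 and 90.3 FPKM in KO libraries, against 47.6, 86.8 and 47.0 FPKM in WT libraries. Its log2 fold change was 1.17 ± 0.27 (limma adjusted p = 0.0266). The call was lost in 6 of 15 alternatives, among them without KO replicate 1, KO replicate 2, WT replicate 1 or WT replicate 3 and without the pair of KO replicates 1 and 3 (adjusted p of up to 0.102). Ppbp, the precursor of a platelet chemokine, had a log2 fold change of 0.66 ± 0.33 and did not pass (limma adjusted p = 0.238). Cxcl3 and Cxcl5 were under the filter, with at most 0.961 FPKM in any KO library and at most 0.793 FPKM in any WT library. Pf4 and Ppbp are also platelet markers, and the 8 megakaryocyte and platelet markers summed to 491 to 572 FPKM in KO and 248 to 301 FPKM in WT libraries, with 4 of 7 tested higher. The part of such cells in the value of Pf4 was not tested.

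**Figure D3:**
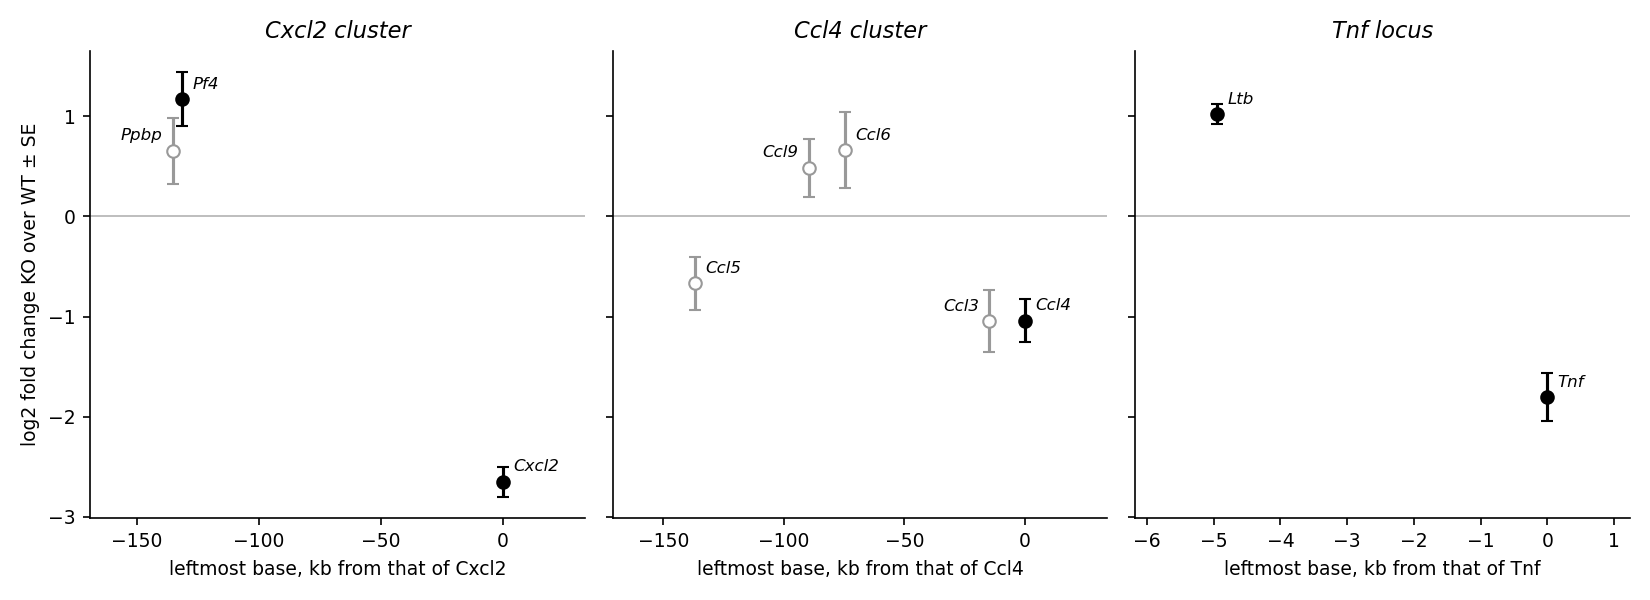
Log2 fold change (KO over WT, ± SE) of Cxcl2, Ccl4 and Tnf and of listed neighbours within 500 kb that passed the filter, against the distance of the leftmost base in kb; filled points were called and open points were not. Cxcl2 (-2.65) and Pf4 (1.17), and Tnf (-1.80) and Ltb (1.02), stand on opposite sides of 0.

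Ccl3 and Ccl4 encode the macrophage inflammatory proteins 1 alpha and 1 beta, which attract monocytes and lymphocytes. Ccl4 was the most highly expressed of the 10 genes, at 263, 195 and 132 FPKM in KO libraries, against 422, 345 and 408 FPKM in WT libraries. No KO value reached the lowest WT value. The mean was 196 ± 65.6 FPKM in KO and 392 ± 40.6 FPKM in WT (SD, n = 3 each), a ratio of 0.502, and the log2 fold change was -1.04 ± 0.21 (limma adjusted p = 0.0166). This call was not stable: it was lost without WT replicate 1, 2 or 3 (limma adjusted p = 0.0670, 0.0546 and 0.0619) and with no filter on low values (0.0744); the adjusted p ran from 0.00471 to 0.0744 across the alternatives. Ccl4 was called without KO replicates 1 and 3 (adjusted p = 0.0286).

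Ccl3 stood at 42.5, 14.9 and 18.5 FPKM in KO libraries, against 51.6, 42.8 and 51.0 FPKM in WT libraries. KO replicate 1 nearly reached the lowest WT library, while KO replicates 2 and 3 lay far below it. The mean was 25.3 ± 15.001 FPKM in KO and 48.5 ± 4.95 FPKM in WT (SD, n = 3 each). The log2 fold change of -1.05 ± 0.31 did not pass (limma adjusted p = 0.0607; 0.00170 to 0.172 over its alternatives). Without KO replicate 1 it was -1.48 (adjusted p = 0.00170), and without KO replicates 1 and 3 it was -1.63 (adjusted p = 0.0107). It also passed with a filter of 5 FPKM (0.0371) and by voom on recovered reads (0.0381).

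Ccl3 lies at chr11:83647844-83649355 on the minus strand and Ccl4 at chr11:83662584-83664683 on the plus strand, 13.2 kb apart. The ratio of Ccl4 to Ccl3 FPKM was 6.18, 13.1 and 7.10 in KO and 8.16, 8.08 and 8.00 in WT libraries. The WT libraries agreed closely and the KO libraries spread to both sides of them. Of the other CC chemokines of this cluster that passed the filter, Ccl5 had a log2 fold change of -0.67 ± 0.27 (limma adjusted p = 0.138), Ccl6 of 0.66 ± 0.38 (0.297) and Ccl9 of 0.49 ± 0.29 (0.315). None of these 3 passed the test.

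Cxcl10 encodes an interferon-induced chemokine of the receptor Cxcr3. It stood at 16.4, 12.7 and 9.82 FPKM in KO libraries, against 20.2, 26.7 and 31.4 FPKM in WT libraries. The groups did not overlap, although KO replicate 1 and WT replicate 1 were close. The mean was 13.0 ± 3.31 FPKM in KO and 26.1 ± 5.60 FPKM in WT (SD, n = 3 each), a ratio of 0.497, and the log2 fold change was -0.96 ± 0.20 (limma adjusted p = 0.0183). The call was lost without WT replicate 2 (adjusted p = 0.0807), without WT replicate 3 (0.0731), with no filter (0.0698) and without KO replicates 1 and 3 (0.0883), in a range of 0.00947 to 0.0883.

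Cxcl10 lies at chr5:92346638-92348889 on the minus strand, inside Art3 on the other strand, and the library kit does not mark strand. Art3 was at 0.184 to 0.423 FPKM in KO and 0.0434 to 0.244 FPKM in WT libraries, far below Cxcl10. Cxcl9 and Cxcl11, the neighbouring chemokines of the same receptor, were under the filter, with at most 0.382 FPKM in KO and at most 0.606 FPKM in WT libraries.

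Ptgs2 encodes cyclooxygenase 2, the inducible enzyme that starts prostaglandin synthesis from arachidonic acid. Its level was 37.8, 31.3 and 36.7 FPKM in KO libraries, against 109, 130 and 112 FPKM in WT libraries. The libraries of each group lay close together and the groups were far apart, with 2850 recovered reads in KO and 8876 in WT. The mean was 35.2 ± 3.51 FPKM in KO and 117 ± 11.2 FPKM in WT (SD, n = 3 each), a ratio of 0.301. The log2 fold change was -1.70 ± 0.11 (limma adjusted p = 7.74e-05), and the call held in all 15 alternatives (adjusted p of 9.55e-06 to 0.00569). Ptgs2 lies at chr1:150100031-150108227 on the plus strand.

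Ptgs1 encodes the constitutive cyclooxygenase and was chosen for comparison after its values were seen. It rose to 34.8, 24.4 and 38.4 FPKM in KO libraries, against 19.1, 21.6 and 15.3 FPKM in WT libraries, with a log2 fold change of 0.76 ± 0.18 (limma adjusted p = 0.0296). The ratio of Ptgs2 to Ptgs1 was 1.09, 1.28 and 0.954 in KO libraries, against 5.72, 6.02 and 7.32 in WT libraries. The cyclooxygenases were thus near parity in every KO library, while Ptgs2 exceeded Ptgs1 severalfold in every WT library. The call of Ptgs1 was lost in 8 of 15 alternatives, among them without KO replicate 1, without KO replicate 3 and without each WT replicate (adjusted p of up to 0.290).

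**Figure D4:**
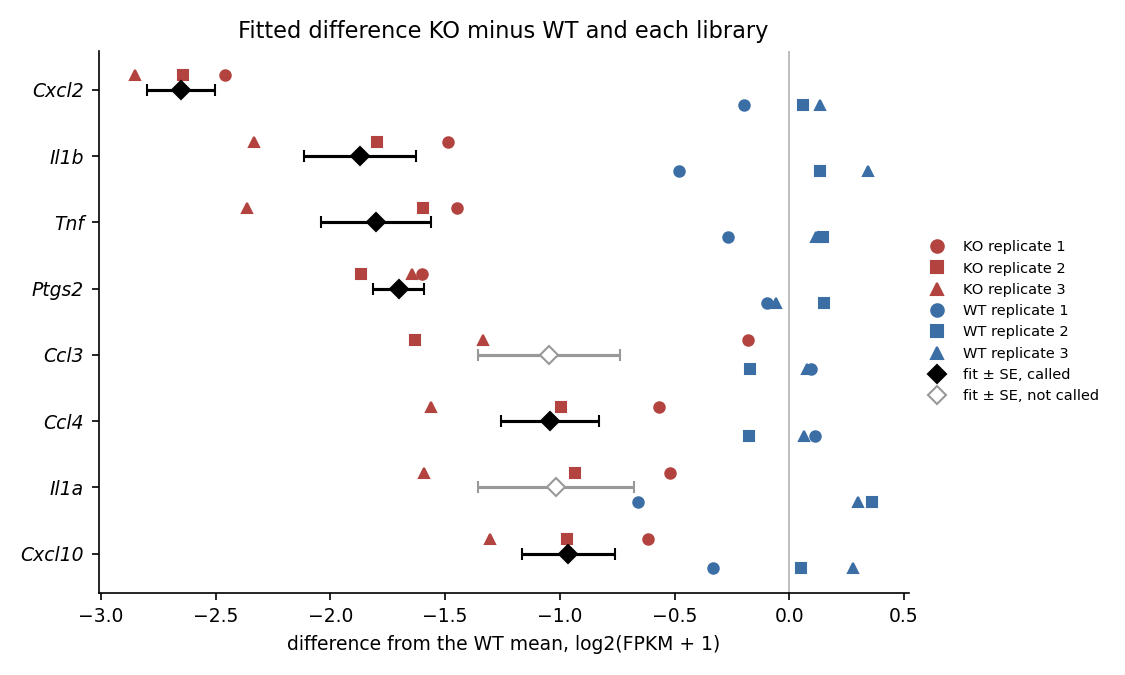
Difference from the WT mean on the log2(FPKM + 1) scale for the 8 tested genes; small markers are single libraries, and diamonds are the fitted KO minus WT difference ± SE, filled where called. Cxcl2 has the largest difference (-2.65) with little spread, and KO replicate 1 lies close to the WT libraries in Ccl3.

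The KO libraries differed in how far the 8 tested genes lay from the WT mean. The median difference over the 8 was -1.03 in KO replicate 1, -1.61 in KO replicate 2 and -1.62 in KO replicate 3 on the log2(FPKM + 1) scale, and all 8 genes were below the WT mean in each of them. KO replicate 1 was the highest KO library in all 8 genes, and KO replicate 3 was the lowest in 6. Among the WT libraries, WT replicate 1 was the lowest in 6. Summed FPKM of the 10 genes was 414, 298 and 226 in KO libraries, against 729, 731 and 810 in WT libraries. Spread within KO also differed by gene, from a coefficient of variation of 9.95% in Ptgs2 to 59.2% in Ccl3.

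The order of the levels, which FPKM allows since it is per length, was not the same in the groups. In KO libraries, the order of the means was Ccl4, Ptgs2, Il1b, Ccl3, Cxcl10, Cxcl2, Tnf and Il1a. There the ranges of Ptgs2, Il1b and Ccl3 overlapped, as did those of Ccl3 and Cxcl10, of Cxcl2 and Tnf, and of Tnf and Il1a. In WT libraries, Ccl4 was highest, followed by Il1b and Ptgs2, whose ranges overlapped, then Ccl3, then Cxcl2 and Cxcl10, which overlapped, then Tnf and Il1a. Il6 and Cxcl1 were at the bottom in both groups. Cxcl2 stood above Cxcl10 within each WT library, although their ranges overlapped, and below every Cxcl10 value in KO libraries.

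Markers of cells outside the gate were read as summed levels per library. Where markers called are counted, the background over all 11371 tested genes was 5.43% lower and 5.48% higher by limma. By voom it was 811 genes lower and 765 higher. The 12 neutrophil markers summed to 208, 48.5 and 81.8 FPKM in KO libraries, against 233, 151 and 269 FPKM in WT libraries. The groups overlapped, and KO replicate 2 and WT replicate 2 were the lowest of their groups. KO replicate 1 was the highest KO library. It was also highest in the sums of the LSK gate, monocyte, mast cell, B cell, T and NK cell and platelet lists. It was not highest for lineage antigens or for endothelial and stromal markers. By limma 0 of the 10 tested neutrophil markers were called (0 higher and 4 lower at an unadjusted p under 0.05), and voom called 0 higher and 2 lower. Ly6g, the defining antigen, was at 0 in KO replicates 2 and 3 and in WT replicates 1 and 2. The T and NK cell markers summed to 303, 249 and 194 FPKM in KO libraries, against 357, 407 and 421 FPKM in WT libraries, nearly all of it Nkg7, while Cd3g and Ncr1 were at 0 throughout. Nkg7 fell, but Klrb1c of the same list rose (1.16 on the log2 scale, limma adjusted p = 0.0195), and the median log2 fold change of its 5 tested members was 0.54.

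The other marker lists went in different directions. Monocyte, macrophage and dendritic markers summed to 423 to 509 FPKM in KO and 392 to 460 FPKM in WT libraries. Most of it was Lyz2, at 395 to 464 FPKM in KO and 355 to 417 FPKM in WT. Of the 7 tested, 1 was lower, Cd68 (-0.69 on the log2 scale, limma adjusted p = 0.00988), and Marco was at 0 in every library. Higher members were found among mast cell and basophil markers (3 of 7; 68.2 to 137 FPKM in KO and 53.9 to 92.3 FPKM in WT) and lineage antigens (2 of 5; 16.8 to 19.9 FPKM in KO and 13.6 to 15.7 FPKM in WT). Lower members were found among endothelial and stromal markers (2 of 6; 27.4 to 31.6 FPKM in KO and 42.5 to 47.0 FPKM in WT). B and plasma cell markers, which hold Igkc, summed to 227 to 3703 FPKM in KO and 428 to 449 FPKM in WT; by limma 0 of 8 were called (3 higher and 0 lower at an unadjusted p under 0.05), and voom called 0. Within the gate, Kit was at 82.5 to 129 FPKM in KO and 105 to 150 FPKM in WT libraries, and Ly6a, which encodes Sca1, at 114 to 161 FPKM in KO and 110 to 129 FPKM in WT. Both gating genes were present in every library, with overlapping groups. Flt3 and Cd34, markers of multipotent progenitors, fell by 1.22 and 0.72 on the log2 scale, and Slamf1, a stem cell marker, rose by 2.01 (limma adjusted p = 0.000567, 0.00420 and 0.00167). The other 4 of the 7 gate genes, Kit, Ly6a, Ptprc and Cd48, were not called. Cd48 hardly moved (0.05 on the log2 scale, limma adjusted p = 0.878). It stood at 139 to 202 FPKM in KO and 150 to 195 FPKM in WT libraries. The part of any of these cell types in the lower inflammatory genes was not tested.

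Other genes of the inflammatory network were taken from 7 lists. Of all 11371 tested genes, limma called 5.43% lower and 5.48% higher, and voom called 811 lower and 765 higher. The share over all genes at an unadjusted p under 0.05 was not counted. Whether the count called in any of these short lists differs from these shares was not tested. In the list of other cytokines, 3 of 10 tested genes fell and 1 rose, with a median log2 fold change of -0.17. Il12a, a subunit of interleukin 12, fell to 8.70, 9.51 and 6.86 FPKM in KO libraries, against 20.0, 16.9 and 17.9 FPKM in WT libraries (-1.05 ± 0.14, limma adjusted p = 0.00335). Il10, an anti-inflammatory cytokine, fell to 2.75, 2.32 and 2.11 FPKM in KO libraries, against 5.75, 5.86 and 10.02 FPKM in WT libraries (-1.24 ± 0.22, adjusted p = 0.00947). The call of Il10 was lost without KO replicates 1 and 3 (adjusted p = 0.0951), and that of Il12a held in all 15 alternatives. Tgfb1, another regulatory cytokine, fell by 0.50 ± 0.11 (adjusted p = 0.0207), and its call was lost without KO replicate 2 and without each WT replicate (adjusted p of up to 0.0981).

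Ltb, which encodes lymphotoxin beta, was the list member that rose. It lies 3.06 kb from Tnf and stood at 219, 201 and 203 FPKM in KO libraries, against 113, 92.5 and 100 FPKM in WT libraries. The groups were far apart, in the direction opposite to Tnf (1.02 ± 0.10, limma adjusted p = 0.000638), and the call held in all 15 alternatives. Lta, which lies 1.16 kb from Tnf on its other side, was at 0 except for 0.463 FPKM in WT replicate 1.

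In the list of other chemokines, 2 of 11 tested genes rose and 1 fell, with a median log2 fold change of 0.13. Besides Pf4, Cx3cl1, the membrane-bound chemokine fractalkine, rose by 0.83 ± 0.15 (limma adjusted p = 0.0115). Cxcl12, the chemokine that retains stem cells in the marrow niche and also 1 of the endothelial and stromal markers, fell by 0.86 ± 0.24 (adjusted p = 0.0494), a call that was lost in 9 of 15 alternatives (adjusted p of up to 0.288). Without KO replicates 1 and 3 limma called 0 of the 11, and 1 rose and 0 fell without KO replicate 1, without KO replicate 2 and without WT replicate 3. With all 6 libraries, 2 of the 11 were higher and 2 lower at an unadjusted p under 0.05, and voom called 2 higher and 1 lower.

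Of 8 tested receptors of these ligands, 2 fell and 0 rose by limma, with a median of -0.30 (2 lower and 0 higher at an unadjusted p under 0.05, and 1 lower and 0 higher by voom). Il1r1, the signalling receptor of interleukin 1, fell to 3.76, 3.52 and 4.56 FPKM in KO libraries, against 14.5, 13.8 and 11.4 FPKM in WT libraries. The groups were far apart (-1.53 ± 0.15, limma adjusted p = 0.000712), and the call held in all 15 alternatives. Il1r2, the decoy receptor, fell by 0.73 ± 0.18 (adjusted p = 0.0320). That call was lost in 7 of 15 alternatives, so that 1 receptor was left without KO replicate 1, without each WT replicate and without KO replicates 1 and 3. The receptors of Tnf, Tnfrsf1a and Tnfrsf1b, had log2 fold changes of -0.19 ± 0.10 and -0.41 ± 0.19 and did not pass.

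Among 16 tested genes of prostanoid synthesis, breakdown and reception, 3 rose and 3 fell, with a median of -0.13. Tbxa2r, the thromboxane receptor, fell to 9.43, 7.96 and 5.12 FPKM in KO libraries, against 19.5, 22.1 and 17.5 FPKM in WT libraries (-1.31 ± 0.20, limma adjusted p = 0.00464). Tbxas1, which makes thromboxane, rose to 23.6, 18.8 and 20.6 FPKM in KO libraries, against 12.4, 10.2 and 10.8 FPKM in WT libraries (0.85 ± 0.13, adjusted p = 0.00515). The call of Tbxa2r held in all 15 alternatives, and that of Tbxas1 was lost without KO replicates 1 and 3 (adjusted p = 0.0740). Ptgir, the prostacyclin receptor, fell by 1.49 ± 0.23 (adjusted p = 0.00534), and Ptges, the inducible prostaglandin E synthase, rose by 1.13 ± 0.23 (adjusted p = 0.0169). Ptgir lost its call without KO replicates 1 and 3 (adjusted p = 0.0537), and Ptges without WT replicate 1 and without WT replicate 2 (adjusted p of up to 0.0637). The list gave 3 calls without WT replicate 1, without WT replicate 2 and without KO replicates 1 and 3. Pla2g4a, which releases arachidonic acid and lies 139 kb from Ptgs2, had a log2 fold change of 0.27 ± 0.11 (adjusted p = 0.154).

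Genes for the release and processing of interleukin 1 and Tnf, such as Casp1 and Adam17, gave 0 calls among 6 tested by limma. At an unadjusted p under 0.05 limma gave 0 higher and 1 lower, voom called 0, and the median was -0.01. Casp1, which cleaves interleukin 1 beta, stood at 39.8, 36.1 and 34.7 FPKM in KO libraries and 32.7, 42.4 and 28.9 FPKM in WT libraries, which overlapped.

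Of 12 NF-kB factors and feedback genes, 2 fell and 0 rose by limma, with a median of -0.13 (4 lower and 1 higher at an unadjusted p under 0.05, and 2 lower and 0 higher by voom). Nfkbiz, a nuclear cofactor of NF-kB that is induced by interleukin 1, fell to 37.8, 24.1 and 20.5 FPKM in KO libraries, against 84.3, 119 and 108 FPKM in WT libraries (-1.91 ± 0.21, limma adjusted p = 0.00120). Tnfaip3, the feedback inhibitor A20, fell to 33.8, 30.3 and 41.6 FPKM in KO libraries, against 63.7, 74.5 and 67.8 FPKM in WT libraries (-0.95 ± 0.13, adjusted p = 0.00304). In both genes every KO library lay under every WT library, and both calls held without KO replicates 1 and 3. The subunits themselves did not pass: Rela had a log2 fold change of -0.08 ± 0.09, Nfkb1 of 0.16 ± 0.12 and Rel of -0.22 ± 0.16.

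Of 13 genes that act on AU-rich elements or on cytokine mRNA decay and stability, 4 fell and 0 rose by limma, with a median of -0.38 (8 lower and 0 higher at an unadjusted p under 0.05, and 5 lower and 0 higher by voom). Khsrp, which promotes decay of mRNAs with AU-rich elements, fell to 3.65, 4.79 and 5.87 FPKM in KO libraries, against 25.8, 20.2 and 19.9 FPKM in WT libraries (-2.0 ± 0.17, limma adjusted p = 0.000315). Zc3h12a, the endonuclease Regnase-1 that cuts cytokine mRNAs, fell to 13.1, 9.59 and 6.78 FPKM in KO libraries, against 24.1, 31.5 and 25.9 FPKM in WT libraries (-1.41 ± 0.21, adjusted p = 0.00432). In both genes every KO library lay under every WT library, and both calls held in all 15 alternatives. Mapkapk2, the kinase MK2 that stabilises such mRNAs, fell by 0.69 ± 0.12 (adjusted p = 0.00993), and Zfp36, tristetraprolin, fell by 0.61 ± 0.13 (adjusted p = 0.0212). Mapkapk2 lost its call without WT replicate 2 and without KO replicates 1 and 3 (adjusted p of up to 0.0833). Zfp36 lost its call without KO replicate 2 and without each WT replicate (adjusted p of up to 0.0884). The list gave 2 calls without WT replicate 2 and 3 without KO replicates 1 and 3.

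**Figure D5:**
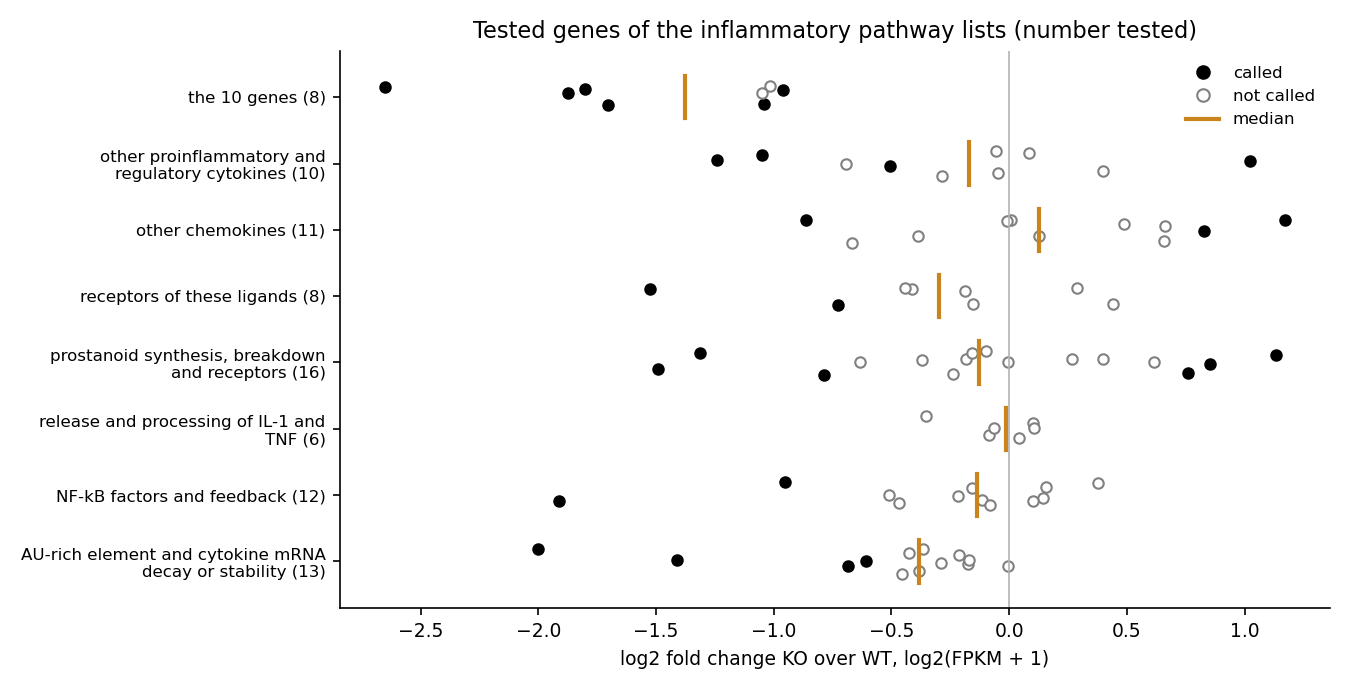
Log2 fold change (KO over WT, on log2(FPKM + 1)) of each tested gene among the 10 inflammatory genes and in the 7 lists, with the number tested in brackets; filled points were called, open points were not, and the vertical bar is the median. The median is -1.38 for the inflammatory genes and lies between -0.38 and 0.13 in the lists.

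Fold changes were also listed by the number of AU-rich nonamers, as a description with no test. Among other tested genes with a 3′ UTR, the median log2 fold change was -0.05 in 139 genes with 3 or more nonamers, -0.08 in 264 with 2, -0.05 in 1273 with 1 and 0.01 in 8133 with none. The shares called lower in the libraries labelled KO were 4.32%, 7.20%, 5.42% and 5.59% for these classes in the same order, and the shares called higher were 1.44%, 5.30%, 3.85% and 5.86%. Among the 8 tested inflammatory genes, Tnf, Cxcl2 and Ptgs2, with 4 or 5 nonamers each, had log2 fold changes of -1.80, -2.65 and -1.70. Ccl3, with 1 nonamer, had -1.05. Il1b, Ccl4, Il1a and Cxcl10, with none, had -1.87, -1.04, -1.02 and -0.96.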

How the data were processed

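RNA from sorted LSK cells was made into cDNA with SMART-Seq v4 and into libraries with Nextera XT, per the labels' protocols. The deposited values are FPKM, scaled by the authors. Per the submitters' processing notes, TopHat2 (2.1.1) and HTSeq (0.6.1) were among the tools, with DESeq2 (1.18.1), bcl2fastq (2.19.1.403) and the mm10 build. Their roles and the annotation are not given in the sources used here. Each gene symbol has 1 value per library.

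The 3 KO libraries were compared with the 3 WT libraries by limma-trend (limma 3.58.1 in R 4.3.3; lmFit, then eBayes) on log2(FPKM + 1). The 11371 genes that averaged 1 FPKM or more entered the fit. Two-sided p-values over all of these genes received the Benjamini-Hochberg adjustment, and genes under 0.05 were called. For low genes, the pseudocount makes fold changes too small. Whole reads were recovered from FPKM ratios between libraries: in all 17183 genes above 0 in at least 2 libraries the ratios were those of whole numbers (relative tolerance 1e-06). The implied gene length matched GENCODE M21 in 50.5% of 19373 genes above 0. In other genes, Il6, Cxcl2, Cxcl1, Cxcl10 and Ptgs2 among them, the reads are lower bounds. Positions, 3′ UTRs and Ensembl models are from GENCODE M21 (GRCm38, the same coordinates as mm10), and promoters are from RefSeq (GRCm38.p6). Preparation and plots used Python 3.11.15, numpy 2.4.6, pandas 2.3.3 and matplotlib 3.10.9.

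The 10 genes, the 7 pathway lists and the marker lists were chosen with earlier results of these data known. All 10 genes are named, and of each pathway list up to 4 called members by smallest p, with listed genomic neighbours. Genes given to describe values that did not pass, and Ptgs1, were added after values were seen. Alternatives were pseudocounts of 0.1 and 0.5, no filter and a filter of 5 FPKM, quantile normalization, a replicate block, array weights and leaving out each library. After the data were seen, voom on recovered reads and leaving out KO replicates 1 and 3 together were added. The fit was tested on simulated data.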

Additional observations from a re-analysis of the deposited data

How the results depend on the processing

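In all 15 alternatives the 8 tested genes that could be fitted stayed lower in the libraries labelled KO, and the sign of no result reversed. The number of the inflammatory genes called lower ran from 4 to 7, against 6 in the comparison of all 6 libraries. Cxcl2, Ptgs2, Il1b and Tnf were called in every alternative, and Il1a in none of the 14 that tested it. The number of all genes called was 588 with no filter, which tests 19373 genes, 805 with the replicate block and 514 without KO replicates 1 and 3, against 1240. Leaving out single libraries gave 370 to 1598 called genes and 4 to 7 of the inflammatory genes. The deviations of same-numbered KO and WT libraries from their group means correlated at -0.03, 0.05 and -0.12 for numbers 1, 2 and 3. Differently numbered libraries correlated at -0.155 to 0.171. With 3 libraries in each group, these values cannot tell whether libraries of the same number were prepared together. The replicate block called 7 of the inflammatory genes, Ccl3 included. Of the 20 other genes followed through the alternatives, 8 were called in every alternative that tested them. Flt3, Cd34, Slamf1, Klrb1c and Nkg7 were not among these 20. The causes of the changes between alternatives were not tested. Depth limits Il6 and Cxcl1, with at most 8 and 2 recovered reads, which are lower bounds, in any library.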
